A study of Mus musculus with 8 samples.

Results

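Neuropeptides are short signalling proteins that neurons cut from larger precursors, store in dense-core vesicles and release to act on G protein-coupled receptors. In the dentate gyrus of the hippocampus several of them are known as markers of GABAergic interneurons, while the new granule neurons made from neural stem cells pass through neuroblast stages with changing sets of genes. The genes described here encode the precursors of 8 such peptides: Tac2 (neurokinin B), Gal (galanin), Penk (enkephalins), Npy (neuropeptide Y), Sst (somatostatin), Cck (cholecystokinin), Vip (vasoactive intestinal peptide) and Adcyap1 (the pituitary adenylate cyclase-activating peptide). They are 8 of 31053 genes in the tables, and they were selected on their levels over cell types in these same 2 libraries, so every level below is a description and none was tested.

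The cells came from Nestin-GFP mice, which carry GFP under control elements of the nestin gene, an intermediate filament of neural stem cells. Male mice aged 8 weeks received either a sham craniotomy (Control) or a unilateral controlled cortical impact to a depth of 1 mm (TBI), and 15 days later the dentate gyri of the operated side were dissected, pooled by condition and sorted for live GFP+ cells. The sort set which cells entered, and 1 library was made per condition, so there are no replicates and no difference between Control and TBI could be tested. The labels list 4 Control and 4 TBI samples. The methods of the study state more than 4 animals for each condition, and the cells cannot be assigned to animals.

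Of the barcodes, 3049 Control cells and 5036 TBI cells were kept, with a median of 6928 and 5663 unique molecular identifiers (UMIs, tags that mark single captured RNA molecules) per cell. The libraries shared 3 cell barcodes. Scrublet called 38 Control and 110 TBI cells doublets, which were left in. Levels are UMIs scaled to 1000000 UMIs of all genes but Malat1 (CPM), summed over the cells of a population, and are compared for 1 gene across populations, not between genes. Their 95% intervals are exact Poisson intervals, those of shares of cells are Clopper-Pearson intervals, and both cover counting error only.

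Populations were rebuilt by clustering without the 8 genes and named from marker genes. Along the granule lineage they were cycling progenitors (340 cells), progenitors rich in the cyclin gene Ccnd2 (367 cells), and 4 groups of neuroblast-like cells. From early (586 cells) over intermediate (278) and late (411) to Camk2b-high neuroblasts (305), Eomes, a T-box factor of intermediate progenitors, read 805, 357, 157 and 83.9 CPM. Camk2b, a calcium-dependent kinase subunit of maturing neurons, read 5.0, 11.2, 84.9 and 209 CPM in the same order. The 8 listed markers of immature granule neurons, Camk2b among them, summed to 2178 CPM in Control and 2044 CPM in TBI late neuroblasts. In Camk2b-high neuroblasts they summed to less, 1841 and 1947 CPM, so the order of late and Camk2b-high cells rests on Eomes and Camk2b. A further 83 cells carried the late marker Calb2 with a median of 3438 UMIs and 13.97% mitochondrial UMIs, and are called low-RNA Calb2 neuroblasts. A group of 107 cells (30 Control and 77 TBI) held Reln at 3224 CPM, Trp73 at 389 CPM, Lhx1 at 463 CPM and the glutamate transporter gene Slc17a6 at 517 CPM, the set known from Cajal-Retzius cells, and 6 of them were called doublets. These are the Reln neurons below.

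No interneuron population was found. Gad1 and Gad2, which make GABA, had 71 and 12 UMIs in all cells, the vesicular GABA transporter gene Slc32a1 had 8 and the interneuron factor Lhx6 had 9. No cell held UMIs of at least 2 of Gad1, Gad2 and Slc32a1, which, taken as 3 counts of the total, allows a share of up to 0.0984% of 3049 Control and 0.0596% of 5036 TBI cells. With so few UMIs this limits cells with such UMIs and not cells that express the genes. In the TBI Reln neurons all 4 of these genes were at 0, and in the Control Reln neurons Gad2 and Lhx6 were at 0 while Gad1 and Slc32a1 were not. The neuropeptide genes are therefore described by the populations found, and no level is given for interneurons.

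The 8 genes differed widely in how much RNA was captured and in how few cells it lay. Tac2 had 8401 UMIs in 1000 cells, Gal 301 in 131 cells, Cck 114 in 48 cells, and Penk 47 in 26 cells. Sst had 16 UMIs in 15 cells, Npy 13 in 8 cells, Vip 2 in 1 cell and Adcyap1 1 in 1 cell. The 10 richest cells held 8.19% of the Tac2 UMIs, 25.9% of those of Gal, 51.8% of those of Cck and 66.0% of those of Penk. Tac2 and Gal lay in neuroblasts (87.2% and 89.0% of their UMIs in the 4 stages), and Cck and Penk in the Reln neurons (85.1% and 80.9%).

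**Figure D1:**
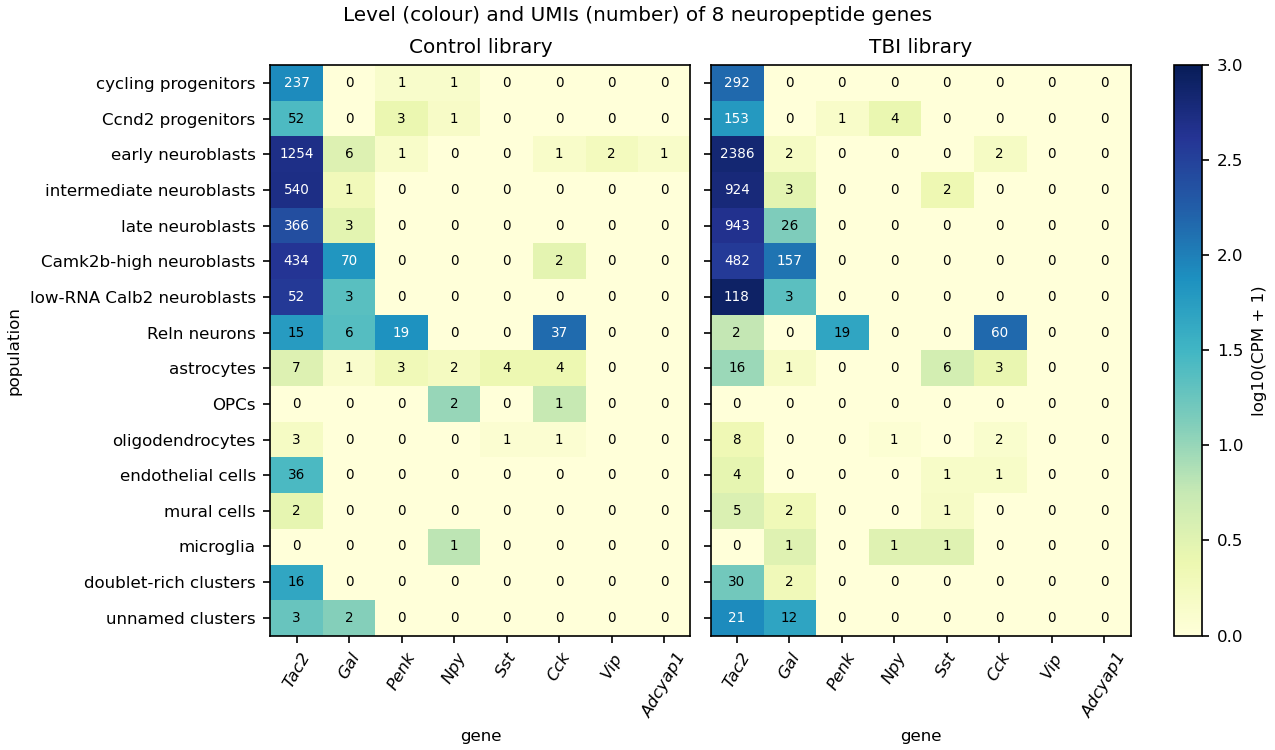
Level of each gene in each population, as log10(CPM + 1) in colour, with the number of UMIs written in each field, for the Control library (left) and the TBI library (right). Tac2 fills the progenitor and neuroblast rows, Gal the Camk2b-high row, and Penk and Cck the row of Reln neurons, while Npy, Sst, Vip and Adcyap1 have at most 6 UMIs in any field.

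The promoters of the 3 genes with over 100 UMIs are shown because these genes had levels that differ between populations. Each is the sequence from 250 bases before to 50 bases after the start of the gene, from RefSeq on GRCm38.p6, and 7 of the 8 genes had such an entry. Capitals mark matches, on either strand, to any of 8 motifs: TGACGTCA (the full cAMP response element, in 1.79% of 32851 promoters), its variant TGACGTAA (0.499%), its shorter form TGACG (20.8%), which lies within both, the E-boxes CAGATG (17.2%) and CAGCTG (16.3%), TATAAA (13.6%), TTCCGGAA (0.712%) and AACAAT (10.7%). Tac2 lies at chr10:127724478-127731768 on the plus strand, Gal at chr19:3409915-3414544 and Cck at chr9:121489824-121495694, both on the minus strand, and no other annotated gene overlaps them.
Tac2, chr10:127724228-127724527, plus strand: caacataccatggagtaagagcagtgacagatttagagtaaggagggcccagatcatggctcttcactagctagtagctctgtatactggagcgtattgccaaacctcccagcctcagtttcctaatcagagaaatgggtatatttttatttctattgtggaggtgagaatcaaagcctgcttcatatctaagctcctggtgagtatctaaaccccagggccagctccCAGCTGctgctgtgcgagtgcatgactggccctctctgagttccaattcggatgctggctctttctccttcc
Gal, chr19:3414495-3414794, minus strand: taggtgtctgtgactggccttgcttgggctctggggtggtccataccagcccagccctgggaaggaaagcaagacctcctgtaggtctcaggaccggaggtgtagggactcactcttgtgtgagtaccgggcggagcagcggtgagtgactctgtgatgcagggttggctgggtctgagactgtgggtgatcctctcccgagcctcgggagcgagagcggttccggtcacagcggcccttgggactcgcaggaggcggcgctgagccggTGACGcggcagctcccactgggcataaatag
Cck, chr9:121495645-121495944, minus strand: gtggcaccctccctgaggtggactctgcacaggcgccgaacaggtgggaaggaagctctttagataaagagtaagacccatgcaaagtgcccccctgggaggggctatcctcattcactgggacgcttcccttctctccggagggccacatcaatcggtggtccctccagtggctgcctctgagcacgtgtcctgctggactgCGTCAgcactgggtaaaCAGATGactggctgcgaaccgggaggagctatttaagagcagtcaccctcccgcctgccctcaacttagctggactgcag
The Tac2 window held 1 match, to CAGCTG, the Gal window 1, to TGACG, and the Cck window 2, to TGACG and to CAGATG. The full element was found for Sst alone among the genes with an entry. A match is a string of letters and not a shown binding site.

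Tac2 encodes the precursor of neurokinin B, a tachykinin that acts on the receptor NK3. It was low in the progenitors rich in Ccnd2, at 25.8 CPM in Control (95% interval 19.2 to 33.8) and 60.1 CPM in TBI (50.9 to 70.4). In cycling progenitors it read 82.4 CPM in Control and 143 CPM in TBI. Among the 4 neuroblast stages it was highest in early neuroblasts, with 501 CPM in Control (474 to 530) and 682 CPM in TBI (655 to 710), and in intermediate neuroblasts, with 509 CPM (467 to 554) and 604 CPM (566 to 645). Late neuroblasts held 239 CPM in Control (215 to 265) and 449 CPM in TBI (421 to 479), and Camk2b-high neuroblasts 410 CPM (373 to 451) and 364 CPM (332 to 397). So Tac2 did not mark a single stage, and its level in the last group was still of the same order as in the first. The order of the late and the Camk2b-high groups was not the same in the libraries: late was lower in Control and higher in TBI. Early and intermediate neuroblasts had overlapping intervals in Control.

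The low-RNA Calb2 neuroblasts, apart from these stages, read 374 CPM of Tac2 in Control (279 to 490) and 821 CPM in TBI (680 to 983). These levels came from 52 and 118 UMIs. The TBI value was above that of every stage, but its interval overlapped that of TBI early neuroblasts (655 to 710). Of its 118 UMIs, 33 lay in 1 cell. In most named populations outside the lineage Tac2 was near the level of single stray UMIs. In oligodendrocytes 11 of 1412 cells held 1 UMI each (0.889 CPM, median depth 9143 UMIs). Of the 40 UMIs in endothelial cells, 34 lay in 1 Control cell. The Reln neurons held 17 UMIs in 4 cells, 12 of them in 1 Control cell. A group of clusters left unnamed, with a median of 1604 UMIs per cell and 24.1% mitochondrial UMIs, held 24 Tac2 UMIs in 15 cells (55.7 CPM). Of its 236 cells, 164 lay in a cluster that scored best on the late neuroblast markers. Hemoglobin genes led that cluster, with Camk2b also among its leading genes, so this group is not clearly outside the lineage. Clusters rich in doublets held 46 in 17 cells (19.5 CPM).

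**Figure D2:**
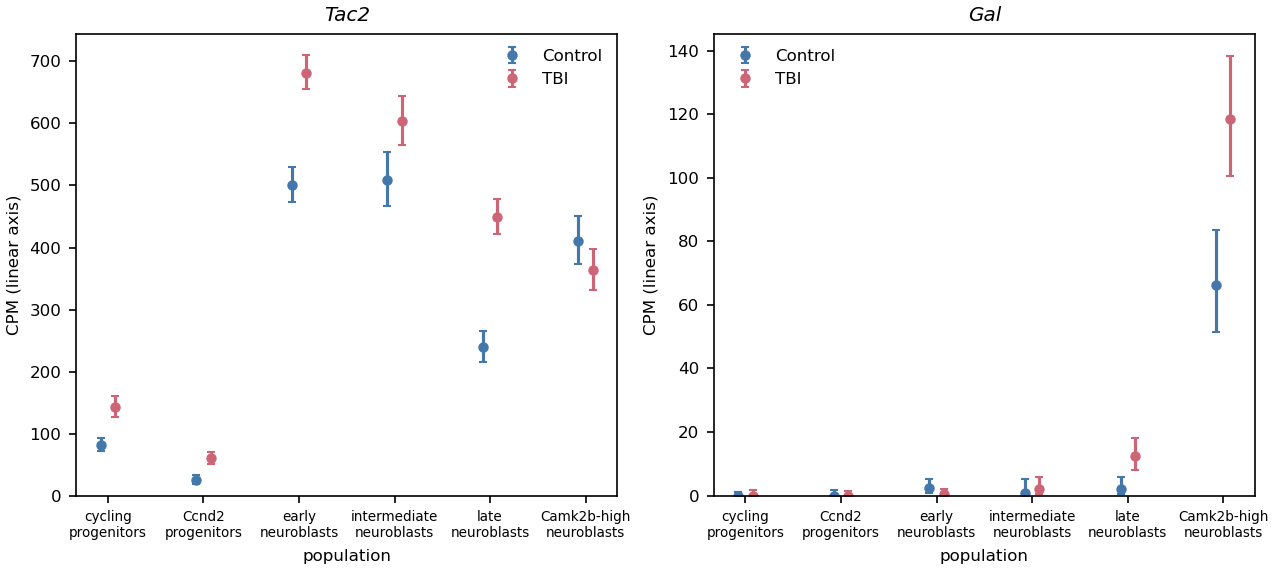
CPM of Tac2 (left) and Gal (right) in 6 populations of the granule lineage, with 1 point per library and exact Poisson 95% intervals as bars, on linear axes. Tac2 is present from the progenitors on, at 25.8 to 682 CPM, whereas Gal is at most 12.4 CPM up to the late neuroblasts and reads 66.2 and 118 CPM in the Camk2b-high group.

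Within a stage Tac2 was unevenly spread over cells. In early neuroblasts 270 of 586 cells (46.1%) held no Tac2 UMI, while 37 held 30 or more and the richest held 99. The cells at 0 had a median of 9949 UMIs after removal of Malat1 and those with 10 or more a median of 10044, so both kinds were sequenced to nearly the same depth. The mean over all of these cells was 6.21 UMIs. The 58 richest early neuroblasts held 61.0% of their Tac2 UMIs. The variance of Tac2 over its mean (the Fano factor) was 25.2 in these cells, against 3.27 for Eomes, 3.68 for Mdk and 2.29 for Dcx, which have means of 8.25, 11.3 and 7.98 UMIs per cell, and 9.08 for Calb2, with a mean of 1.40. In late neuroblasts it was 12.1 for Tac2, with a mean of 3.19 UMIs per cell and 56.7% of cells at 0. For Calb2 it was 9.17 there, with a mean of 15.7 and 4.38% of cells at 0.

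The same uneven spread was present in the other stages. Cells at 0 made up 43.5% of intermediate, 56.7% of late and 56.7% of Camk2b-high neuroblasts. Without Malat1 their median depth was 9204, 8713 and 7288 UMIs, against 9294, 8396 and 9221 in cells with 10 or more Tac2 UMIs. By library, the Tac2-rich Camk2b-high neuroblasts were deeper in Control, with 11754 against 8560 UMIs. In TBI the depth was nearly the same, with 6943 against 6833 UMIs. The part of depth in the Camk2b-high cells at 0 was not tested. Cells with 30 or more UMIs made up 6.31% of early, 4.68% of intermediate, 1.22% of late and 1.97% of Camk2b-high neuroblasts. Among cycling progenitors 78.5% held none and 20 of 340 held 10 or more, and among the progenitors rich in Ccnd2 91.6% held none and 7 of 367 held 10 or more. Thus Tac2-rich cells were already present among dividing cells. After thinning to 2000 UMIs per cell, 36.4% of 585 early neuroblasts (32.5% to 40.5%), 37.8% of 278 intermediate, 27.8% of 410 late and 24.9% of 305 Camk2b-high neuroblasts held a Tac2 UMI. The same thinning left 0.240% of 1251 oligodendrocytes (0.0495% to 0.699%) and 0.252% of 793 endothelial cells with one, and unthinned the shares were 53.9% in early neuroblasts, 0.779% in oligodendrocytes and 0.74% in endothelial cells, at median depths of 10233, 9143 and 3763 UMIs.

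**Figure D3:**
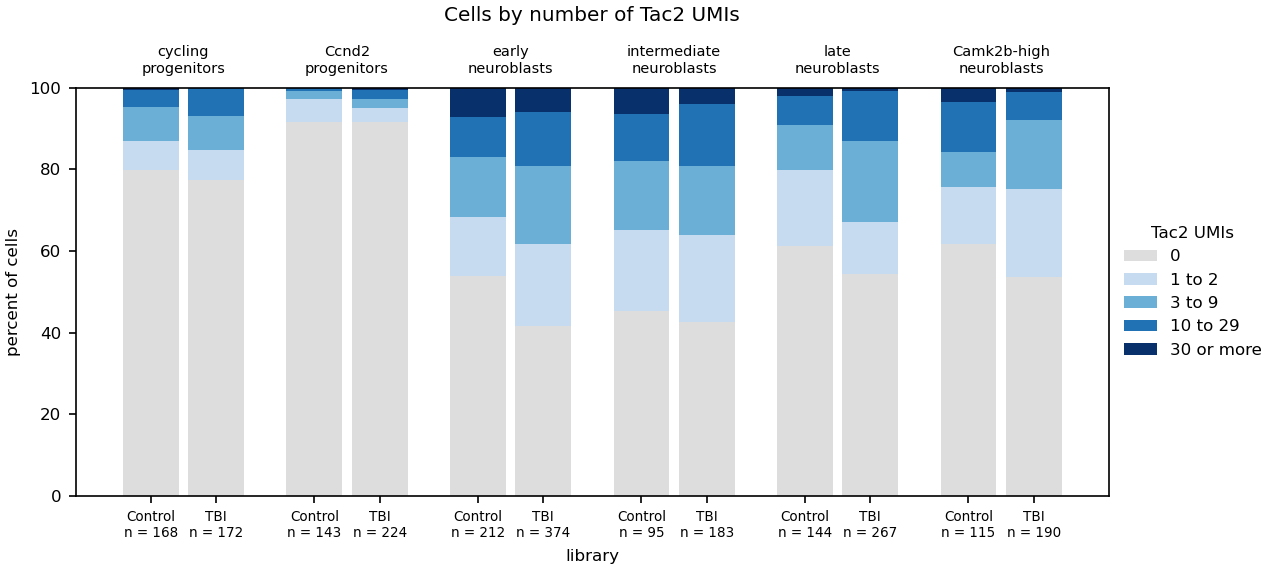
Percent of the cells of each lineage population, by library, with 0, 1 to 2, 3 to 9, 10 to 29, and 30 or more Tac2 UMIs (shades from grey to dark blue), with the number of cells under each bar. Between 41.7% and 61.7% of the cells of every neuroblast stage are at 0 in both libraries, beside cells with 30 or more.

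What else differed between Tac2-rich and Tac2-free cells of the same stage was described in 8 splits, 4 stages in 2 libraries, by comparing cells with 5 or more Tac2 UMIs with cells at 0. This split was chosen after the spread had been seen. Of 4234 genes with at least 30 UMIs in every split, 1 (0.0236%) had a log2 difference of 0.5 or more of the same sign in all 8, on the scale of log2(CPM + 10). It was Mfap4, which encodes a microfibril-associated glycoprotein of the extracellular matrix. In Control early neuroblasts it read 488 CPM in the 56 Tac2-rich cells and 242 CPM in the 114 cells at 0, and in TBI early neuroblasts 632 CPM in 114 cells and 294 CPM in 156 cells. In late neuroblasts the values were 183 and 69.9 CPM in Control and 244 and 121 CPM in TBI. The log2 difference of Mfap4 ranged from 0.65 to 1.28 over the 8 splits, and every one of them was higher in the Tac2-rich cells.

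Zic1, a zinc finger transcription factor, was next, with differences from 0.28 to 1.66 and a median of 0.82. Kctd4 (0.24 to 0.77), Impa1 and Ephb1, an ephrin receptor gene, were also higher in all 8 splits. Of the 4234 genes, 46 in all were higher and 49 lower in every split. How many would share a sign over all splits by chance was not tested, so the sign alone does not set these genes apart. Of the markers of stage, Eomes ranged from -0.27 to 0.51 and Calb2 from -0.094 to 0.57, each with a median of 0.17 and each lower in at least 1 split. Hes5, a Notch target, had a log2 difference of -1.78 in Control and -1.22 in TBI early neuroblasts, and of 0.19 and 0.16 in intermediate neuroblasts. In late neuroblasts it was 0.14 in Control and -0.44 in TBI, and in Camk2b-high neuroblasts -0.23 and -0.51. Its median over the 8 splits was -0.33, and its sign was not the same in all.

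**Figure D4:**
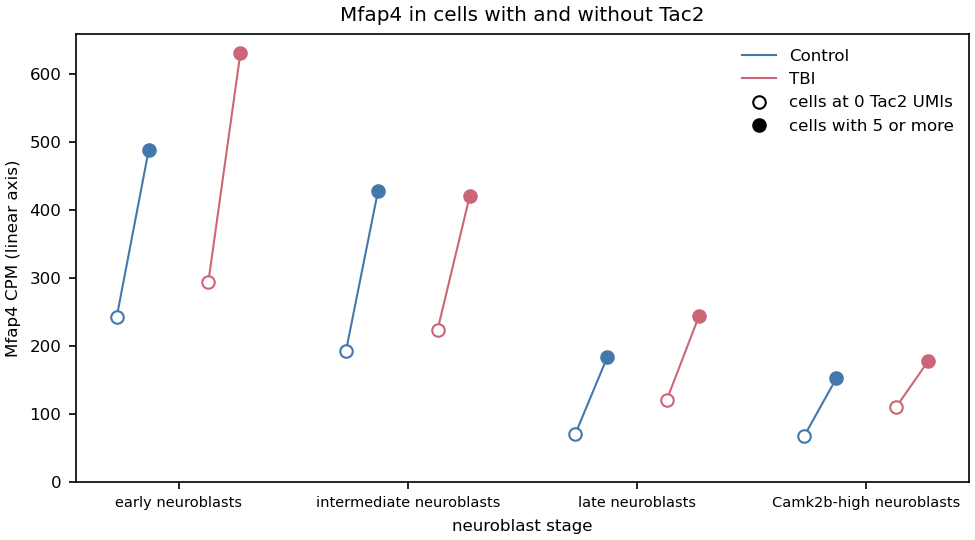
Mfap4 CPM in cells at 0 Tac2 UMIs (open circles) and in cells with 5 or more (filled circles) of the same stage and library, joined by a line, on a linear axis. All 8 lines rise, and Mfap4 itself falls from early to Camk2b-high neuroblasts.

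Gal encodes the precursor of galanin. Of its 301 UMIs, 227 (75.4%) lay in 83 of the 305 Camk2b-high neuroblasts. Its level there was 66.2 CPM in Control (51.6 to 83.6) and 118 CPM in TBI (101 to 138), and no cell held more than 10 UMIs. Late neuroblasts had 1.96 CPM in Control from 3 UMIs and 12.4 CPM in TBI from 26 UMIs in 15 cells. Early neuroblasts had 1.33 CPM and intermediate 1.55 CPM in both libraries together, and the 707 progenitor cells had 0 UMIs. Thinned to 2000 UMIs, 13.1% of the Camk2b-high neuroblasts (9.54% to 17.4%) and 1.46% of the late neuroblasts held a Gal UMI, and unthinned 27.2% and 4.38% did. Oligodendrocytes and endothelial cells had 0 Gal UMIs. The unnamed clusters, with a median of 1604 UMIs per cell and 24.1% mitochondrial UMIs, held a further 14 Gal UMIs in 10 cells (32.5 CPM). They include the 164 cells whose cluster scored best on the late neuroblast markers. The Reln neurons held 6 Gal UMIs, all in 1 Control cell.

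Gal and Tac2 were compared cell by cell in the Camk2b-high neuroblasts. Of the 83 cells with Gal, 29 also had Tac2 (34.9%), whereas 46.4% of the 222 cells without Gal had Tac2. The level of Tac2 was 307 CPM in Control cells with Gal and 444 CPM in those without, and 152 CPM against 453 CPM in TBI. The depth of these cells was close, with a median of 7790 UMIs with and 7853 without Gal. Higher counts were also compared, with limits set after the values were seen. There, 31 cells held 3 or more Gal UMIs and 33 held 10 or more Tac2 UMIs, and no cell was in both. The overlap that these numbers would give by chance was not tested. Of the 31 cells, 22 had 0 Tac2 UMIs, as had 173 of all 305 cells of the group. Others of the 31 held Tac2, such as a TBI cell with 9 Tac2 and 5 Gal UMIs and a Control cell with 2 and 7. In late neuroblasts, with 18 cells with Gal, the libraries differed: in Control 3 of 3 cells with Gal had Tac2, against 37.6% of those without, and in TBI 40.0% of 15 cells with Gal had it, against 46.0% of those without.

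Penk, the precursor of the enkephalins, and Cck, the precursor of cholecystokinin, lay in the Reln neurons. Cck had 97 UMIs in 31 of these 107 cells, with 140 CPM in Control (98.5 to 193) and 146 CPM in TBI (111 to 188). Penk had 38 UMIs in 17 cells, with 71.8 CPM in Control (43.3 to 112) and 46.2 CPM in TBI (27.8 to 72.2). In Control 11 of the 19 Penk UMIs lay in 1 cell, and without the richest cell of each library the level over both fell from 56.2 to 36.0 CPM. Thinned to 2000 UMIs, 23.6% of 89 Reln neurons (15.2% to 33.8%) held Cck and 7.87% (3.22% to 15.5%) held Penk, and unthinned 28.97% and 15.9%. Their median depth was 6318 UMIs, and thinning kept 25 of 30 Control and 64 of 77 TBI cells. Among oligodendrocytes 3 of 1412 cells held Cck and none held Penk, which by the same rule of 3 counts allows a share of cells with a Penk UMI of up to 0.212%.

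Both peptides were found in some of the same Reln neurons. Of the 17 cells with Penk, 11 also had Cck, 4 of 4 in Control and 7 of 13 in TBI. Penk was present in 35.5% of the 31 cells with Cck and in 7.89% of the 76 cells without. The cells with Cck were deeper, with a median of 7822 UMIs against 5883, and the part of this depth in the overlap was not tested. None of the 4 Reln neurons with Tac2 had Cck. Astrocytes held 7 single UMIs of Cck and 3 of Penk, and Penk overlaps an antisense gene, A830012C17Rik.

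**Figure D5:**
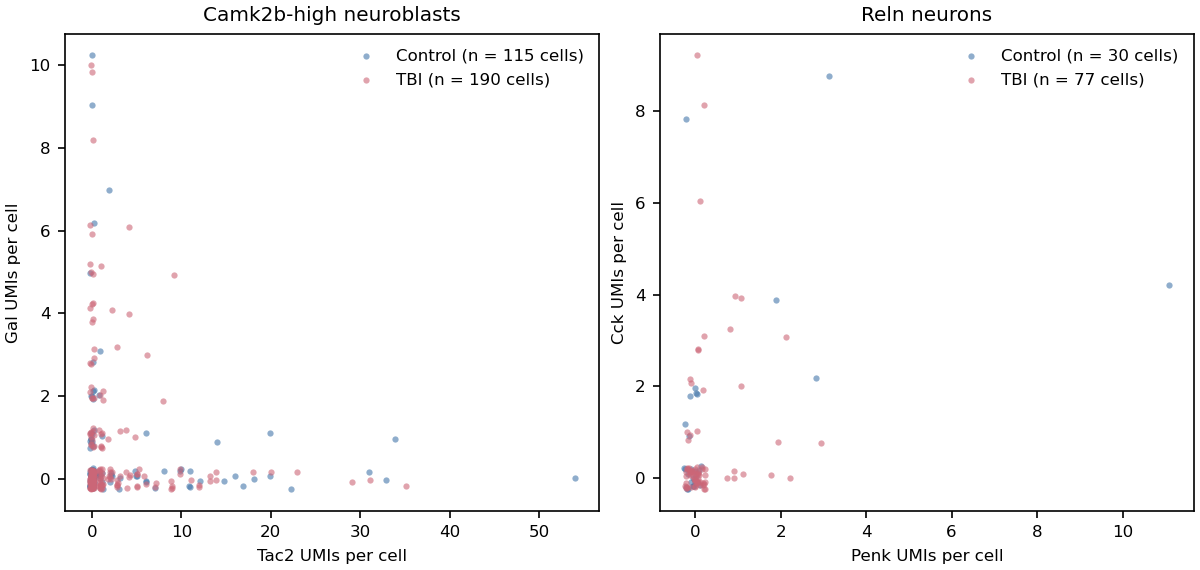
UMIs per cell of Tac2 and Gal in the Camk2b-high neuroblasts (left) and of Penk and Cck in the Reln neurons (right), with 1 point per cell, coloured by library and shifted at random by up to 0.25 to separate equal values. Cells high in Gal lie along the axis at low Tac2, while the cells with Penk and Cck spread over both axes.

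Sst, Npy and Vip are best known from hippocampal interneurons, and here these genes and Adcyap1 were each carried by a handful of UMIs. Sst, for somatostatin, had 10 of its 16 UMIs as single UMIs in 10 astrocytes, 2.07 CPM, and 2 UMIs in 1 TBI intermediate neuroblast. Npy had 4 of its 13 UMIs in 1 TBI progenitor rich in Ccnd2, and no other cell held more than 2. Vip had 2 UMIs in 1 Control early neuroblast, and Adcyap1 had 1 UMI in another. The Reln neurons had 0 UMIs of each of these 4 genes. At this depth no population could be assigned to them.

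The libraries were then set side by side where a gene had at least 10 UMIs in each, which gave 10 ratios. Tac2 was higher in TBI than in Control in 6 of 7 populations. The log2 ratio was 0.80 (0.55 to 1.05) in cycling progenitors, 1.22 (0.76 to 1.70) in progenitors rich in Ccnd2 and 1.14 (0.65 to 1.64) in low-RNA Calb2 neuroblasts. In early, intermediate and late neuroblasts it was 0.44 (0.35 to 0.54), 0.25 (0.092 to 0.40) and 0.91 (0.73 to 1.09). In Camk2b-high neuroblasts it was -0.18 (-0.37 to 0.015). There it turned to 0.081 with doublets removed and the cells clustered anew, and to 0.046 as a mean over cells. Gal had 0.84 (0.42 to 1.27) in the Camk2b-high group, Cck 0.061 (-0.55 to 0.69) and Penk -0.64 (-1.63 to 0.36) in the Reln neurons, and that of Penk turned to 0.34 without the richest cell of each library. These intervals count UMIs as independent, which the spread of Tac2 over cells shows they were not, and they hold no spread between animals.

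Of the 10 ratios, 2 were past a fold of 2, both of Tac2, in progenitors rich in Ccnd2 and in low-RNA Calb2 neuroblasts. Without the richest cell of each library the former rose to a log2 ratio of 1.57 (0.97 to 2.22). The latter fell to 0.975 (0.43 to 1.54), within a fold of 2. As background, the share of all genes with as many UMIs that were past this fold in either direction was 1.16% in cycling progenitors, 1.19% in progenitors rich in Ccnd2, 1.02% in early, 1.49% in intermediate, 1.4% in late and 1.37% in Camk2b-high neuroblasts, 1.43% in low-RNA Calb2 neuroblasts and 3.75% in Reln neurons. Control cells were deeper, with a median of 12077 UMIs against 9462 in early neuroblasts. By cells rather than UMIs, at 2000 UMIs per cell, Tac2 was found in 32.1% of Control (25.9% to 38.8%) and 38.9% of TBI early neuroblasts (33.9% to 44.0%), and in 19.4% (13.3% to 26.9%) and 32.3% (26.8% to 38.3%) of late neuroblasts, with 1 shallower TBI cell left out of each stage and no Control cell. In progenitors rich in Ccnd2, Tac2 was found in 2.80% of 143 Control (0.767% to 7.01%) and 4.02% of 224 TBI cells (1.85% to 7.49%). Unthinned these shares were 8.39% and 8.48%. In low-RNA Calb2 neuroblasts the thinned shares were 39.4% of 33 Control (22.9% to 57.9%) and 48.8% of 41 TBI cells (32.9% to 64.9%). The thinned intervals overlapped in both populations. Gal was found in 8.70% of Control (4.25% to 15.4%) and 15.8% of TBI (10.9% to 21.8%) Camk2b-high neuroblasts. Injury, library and animals cannot be told apart in these values.

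Of the receptors for these peptides, 4 of 22 had 100 or more UMIs and 6 had none. As background for this and the counts of measured genes below, 13151 of all 31053 genes had 100 or more UMIs. Sstr2, a somatostatin receptor gene, was highest in the neuroblasts, with 108 CPM in early, 88.8 in intermediate, 81.0 in late and 82.2 CPM in Camk2b-high cells. It also read 42.5 CPM in cycling progenitors, 30.9 CPM in progenitors rich in Ccnd2 and 38.9 CPM in low-RNA Calb2 neuroblasts. Reln neurons held 11.8 CPM and astrocytes 0.622 CPM. Galr1, a galanin receptor gene, read 5.17, 8.88, 17.4 and 17.6 CPM over the same stages. Npy1r read 222 CPM in mural cells and at most 8.88 CPM in any other named population. Adcyap1r1 was highest in astrocytes at 200 CPM. Tacr3, the gene of the receptor for neurokinin B, had 2 UMIs in all, and the cholecystokinin receptor genes Cckar and Cckbr had 0. Of the opioid receptor genes Oprm1 had 0 UMIs, Oprd1 5, and Oprk1 51 in 40 cells.

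Of the genes that process and store peptides, 15 of 16 had 100 or more UMIs. Of these, 5 were highest in Reln neurons, 5 in neuroblasts and 5 elsewhere. In which populations all genes were highest was not counted, so these numbers do not set the list apart. In Reln neurons the granin Chgb read 502 CPM, Scg2 105 CPM, and the convertase gene Pcsk2 68.1 CPM, against 199, 22.4 and 4.63 CPM in intermediate neuroblasts, and Pcsk2 read 59.9 CPM in OPCs, the oligodendrocyte precursors. The granin Chga was highest in early neuroblasts at 115 CPM, with 99.6, 89.0 and 78.9 CPM in the later stages. It also read 75.3 CPM in cycling progenitors, 65.3 CPM in progenitors rich in Ccnd2 and 77.0 CPM in Reln neurons. Cpe, a carboxypeptidase of peptide maturation, was highest in astrocytes at 2543 CPM. Pcsk1 had 20 UMIs in all. Of 31 other neuropeptide genes, 5 had 100 or more UMIs. Pnoc, the precursor of nociceptin, read 179 CPM in Reln neurons and at most 0.333 CPM in any other named population, and Nppc 75.5 CPM there. Nmb was highest in intermediate neuroblasts at 23.6 CPM, Nts in mural cells at 234 CPM and Pomc in endothelial cells at 61.5 CPM.

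The genes most like each peptide gene were ranked by Pearson's r of log2(CPM + 10) over the 14 named populations, among 13151 genes. The points share the same 2 libraries, and r is a description. For Tac2 they were Neurod1 (r = 0.97), the factor of granule neuron differentiation, Smim18 (0.97) and Gm26604 (0.96). For Gal they were Cpne9 (0.98), Fam84a (0.98) and D030025P21Rik (0.97), and for Cck Pnoc (1.00), Trp73 (0.99) and Dync1i1 (0.99). Cck read 144 CPM in Reln neurons and at most 1.71 CPM in any other named population. Gal read 95.2 CPM in Camk2b-high and 21.2 CPM in low-RNA Calb2 neuroblasts, and less in any other named population. For Cck and Gal r therefore mostly restates where they were high. Tac2 and Neurod1 did not run alike over the 4 neuroblast stages, from early to Camk2b-high. There Tac2 read 607, 565, 361 and 384 CPM in both libraries together, and Neurod1 696, 1156, 1198 and 1072 CPM. Trp73 was also among the markers of the Reln neurons.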

How the data were processed

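The series holds single-cell RNA data from animals pooled into 1 Control and 1 TBI library before sorting. The labels list 8 samples, fewer than the animals in the methods of the study. The authors deposited raw counts of UMIs per gene and barcode, made with Cell Ranger 3.0.2 on GRCm38/mm10. The condition of each table was checked with barcodes listed by the study: all 356 Control and all 320 TBI barcodes were in the table of that condition and 0 in the other.

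Barcodes with at least 200 genes whose log UMI count lay no more than 3 median absolute deviations from the median of their table were kept. Clustering used Seurat 5.3.0 in R 4.3.3 with the study's settings (2000 variable genes without Malat1 and the 8 genes, 20 dimensions, resolution 3, then 30 dimensions, 16 components and resolution 0.8 for lineage cells). A name needed 3 markers detected in 10% of cells, and clusters with 10% or more doublets were kept apart. Lineage clusters were given their names by hand after their markers had been seen, and 1 of those markers is not reported here. Scrublet ran in scanpy 1.11.5, sums and thinning in numpy 2.4.6 and intervals in scipy 1.17.1 (python 3.11.15). The sums and ratios were tested on simulated data. The members and lists were chosen with earlier results of these data known. Named were the 8 genes, population markers, related genes with 100 or more UMIs and, per gene with 100 or more UMIs, the 3 most alike. Of the genes that process and store peptides, only some with 100 or more UMIs were named, with their values known. Genes outside these rules (Mfap4, Zic1, Kctd4, Impa1, Ephb1, Hes5, Tacr3, Oprm1, Oprd1, Oprk1, Cckar, Cckbr, Pcsk1) were named after their values were seen. Neither replicates nor tests between conditions existed.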

Additional observations from a re-analysis of the deposited data

How the results depend on the processing

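For 21 values (levels, ratios and thinned shares of Tac2 in the 4 neuroblast stages, Gal in Camk2b-high neuroblasts, and Penk and Cck in Reln neurons), 110 of 138 alternative values stayed within the counting interval, 28 moved beyond it, and none of the ratios whose interval left out 0 changed sign. The Tac2 level in early neuroblasts, 607 CPM, became 712 without a limit on UMIs, 653 with doublets removed, 585 with a mitochondrial limit of 10%, 677 with the 8 genes kept among the variable genes and 580 without the richest cell of each library. In intermediate neuroblasts 565 CPM became 529 without a limit on UMIs, 442 with the mitochondrial limit and 521 without the richest cells. In late neuroblasts 361 CPM became 449 without integration and 391 as a mean over cells. In Camk2b-high neuroblasts Tac2 fell from 384 to 350 CPM without the richest cells, and Gal from 95.2 to 81.0 CPM with doublets removed and 80.7 CPM without integration. Penk in Reln neurons fell from 56.2 to 36.0 CPM without the richest cells. For Tac2 the log2 ratio between TBI and Control became 0.34 (doublets removed) and 0.27 (8 genes kept) in early, 0.45 and 0.50 under the same settings in intermediate, 0.58 (no integration) and 1.13 (mean over cells) in late, and 0.081 (doublets removed) and 0.046 (mean over cells) in Camk2b-high neuroblasts. Thinning to 1000 in place of 2000 UMIs, which lowers every share by its construction, gave 25.3%, 25.5%, 21.9% and 19.7% for Tac2 in the 4 stages, 7.54% for Gal and 12.7% for Cck. The cells were clustered anew for the settings on UMIs, doublets, mitochondrial share, variable genes and integration, so a named group then held other cells. With doublets removed, early, intermediate and Camk2b-high neuroblasts numbered 432, 406 and 382 cells, against 586, 278 and 305. Only 11, 3 and 1 of the latter were called doublets. Apart from thinning and the mean over cells, the cause of these moves was not tested. The setting without the richest cells was added after seeing the data. Without integration no cluster matched the intermediate neuroblasts, so it gave no value there. No paired analysis was possible because each condition is 1 pooled library. At this depth no cell held more than 4 UMIs of Npy, 2 of Sst, 2 of Vip or 1 of Adcyap1.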
